A study of Mus musculus with 2 samples.

Results

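A set of genes of the insulin-like growth factor (IGF) system were followed through the aortic wall of atherosclerosis-prone mice: the ligand Igf1, the receptors Igf1r and Igf2r, the binding proteins Igfbp2, Igfbp3, Igfbp4, Igfbp5, Igfbp6 and Igfbp7, and Igfals, the acid-labile subunit of the circulating IGF complex. They were picked by gene name on a whole-genome Agilent array, and every probe carrying one of these names was kept. This gave 10 genes with 15 probes, out of 28651 named genes and 41174 probes on the array.

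The arch RNA, from the stretch of vessel the labels call prone, held the root and arch of the aorta together with 2 mm of the adjoining thoracic part. The thoracic RNA, from the stretch they call resistant, held the 6 mm that follow downstream. Both came from the same apoE-/- mice, a strain without apolipoprotein E that forms atherosclerotic lesions, at 16 weeks of age; 3 males and 3 females were pooled per segment, so no wild-type, lesion-free or single-sex group stands beside them. The vessels had been perfused with Triton X-100, a detergent meant to strip the endothelium and leave a wall rich in smooth muscle.

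Both pools were put on 2 two-colour arrays in a dye swap, so the arrays are technical repeats of 1 measurement (1 replicate). The sign ± gives the SD of a probe over its n = 2 arrays. The spread between mice is unknown, and no test or p-value could be given. A ratio is always arch over thoracic on the log2 scale, and a level is a normalised intensity of 1 probe, which cannot be set against the level of another probe. A gene was called by size. The 1.5-fold rule asked for 1.5-fold or more on both arrays, in 1 direction, and the 2-fold rule asked in addition for a mean of 2-fold or more.

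IGF-1 is a secreted growth factor that drives growth, survival and migration of smooth muscle cells through the IGF-1 receptor, a tyrosine kinase that signals to the PI3K/AKT and MAP kinase routes. Igf2r encodes a receptor without kinase activity that carries IGF-2 and lysosomal enzymes to lysosomes. The binding proteins hold IGFs in blood and tissue, can block or prolong their action, and release them when cut by proteases such as PAPP-A. In arteries, IGF-1 and several binding proteins are made locally by smooth muscle cells, fibroblasts, endothelium and macrophages.

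Each array carried 41534 gene spots, of which 76.5% to 82.6% were well above background per pool and array by the scanner software's flag. In all, 22813 genes and 32176 probes could be compared. Across genes, the ratios of the arrays correlated at 0.81 (Pearson) and 0.58 (Spearman), and the median SD between arrays was 0.06. The 13 smooth muscle markers were all well above background in both pools. None of them passed either rule, but the brightest probes of Acta2 and Tagln, which stood for these genes, were saturated and could show no difference. The 4 further probes of Acta2 had ratios of -0.40 to 0.28, and the 1 further probe of Tagln had -0.05. The median ratio of the other 11 markers was 0.12.

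Some markers of other cell types were higher in the arch pool by the 1.5-fold rule, in most lists a minority. Among mesothelium markers it was 10 of 10 (median 1.35). Among endothelium markers it was 4 of 12 (median 0.44), among fibroblast markers 4 of 12 (median 0.42) and among brown fat markers 3 of 8 (median 0.54). Heart muscle markers were split: 5 of 12 passed, led by Myl7 (3.65), while Myh7 (-0.34), Myl3 (-0.16), Ryr2 (-0.14) and Myh6 (-0.05) were below 0, and the median was 0.22. Macrophage markers were split too: 4 of 15 passed, led by Cd5l (4.09), while Cd14 (-0.14), Adgre1 (-0.06) and Mrc1 (0.01) were among those that did not, and the median was 0.22. Of the skeletal muscle markers 2 of 10 passed (median -0.04) and of the adipocyte markers 0 of 8 (median -0.03). No marker of these lists passed as higher in the thoracic pool. The medians in this paragraph include saturated probes, unlike that of the smooth muscle markers. Without saturated probes the median was 0.44 for fibroblast, 0.20 for macrophage and -0.08 for adipocyte markers.

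Summed levels, in which the brightest probes weigh most, were taken without the saturated probes of Acta2, Tagln, Lyz2, Dcn and Fabp4. Over mesothelium markers they were 11063 and 10499 in the arch pool, against 4588.5 and 4481.1 in the thoracic pool. The 12 endothelium markers were all well above background in both pools after the perfusion by the scanner's flag, some of them dim. Their sums were 2979.9 and 2962.8 in the arch pool, against 1969.5 and 1953.6 in the thoracic pool. Over heart muscle markers they were 28592 and 31473 in the arch pool, against 23495 and 21732 in the thoracic pool. These 3 lists were higher in sum in the arch pool on both arrays, as were the next 3. Over 14 macrophage markers the sums were 34582 and 33939 in the arch pool, against 18310.1 and 17843 in the thoracic pool. Over 11 fibroblast markers they were 107425 and 104939 in the arch pool, against 80714 and 82191 in the thoracic pool. Over brown fat markers they were 19520 and 18557 in the arch pool, against 12329 and 12098 in the thoracic pool. The sums over 11 smooth muscle markers overlapped, at 119970.4 and 121929 in the arch pool, against 123297 and 121837 in the thoracic pool. Those over skeletal muscle markers overlapped too, at 14992 and 14335 in the arch pool, against 13567 and 14568 in the thoracic pool. Over 7 adipocyte markers the sums were lower in the arch pool, at 27975 and 26194, against 31088 and 32248 in the thoracic pool. All of these markers except the adipocyte gene Lep were well above background in every measurement by the scanner's flag, and none was at 0. That flag also passed dim probes, which could show little difference. Among the endothelium markers, Tie1 read 70.1 and 74.1 in the arch pool, against 70.9 and 68.7 in the thoracic pool. The part of these markers in the results below was not tested. In pooled tissue a difference in the number of cells of a type cannot be told apart from a difference in RNA per cell.

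The IGF binding protein genes were the members that differed most between the pools. Igfbp2, Igfbp4 and Igfbp5 were higher in the arch pool by the 2-fold rule and Igfbp3 by the 1.5-fold rule. The calls of Igfbp5 and Igfbp3 rest on their brightest probes, and their further probes, that of Igfbp3 being dim, passed neither rule. Only Igfbp2 and Igfbp4 passed the 2-fold rule under every processing tried. For Igfbp2, which has a single probe, taking the median over a gene's probes could change nothing. The ligand Igf1 and the receptors Igf1r and Igf2r passed neither rule, which does not show that their levels were equal. Igfbp6 had a mean ratio of -0.61 and passed neither rule. Igfbp7 could not be measured because its probe was saturated. The Igfals probe was dim in both pools and could show little difference either way.

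All 15 probes were well above background in both pools on both arrays, so the filter on dim probes removed none of them. The members were chosen with earlier results of these data known. Their shares here and in the next paragraph therefore describe the set and are not a test of it. With the brightest probe standing for each gene, 3 of 10 members (30.0%) passed the 2-fold rule as higher in arch, where 108 of 22813 genes (0.473%) did. By the 1.5-fold rule it was 4 of 10 members (40.0%), against 274 of all genes (1.20%). This count depends on the processing. With the median over a gene's probes it fell to 2 members, as Igfbp3 and Igfbp5 lost their call, and the count over all genes was 469 with no offset and 526 in the deposited log ratio. In the other direction 0 members (0.00%) passed either rule, against 33 of all genes (0.145%) by the 2-fold rule and 88 (0.386%) by the 1.5-fold rule. Counted over probes, 4 of 15 (26.7%) passed the 2-fold rule as higher in arch and 5 of 15 (33.3%) the 1.5-fold rule, against 0.373% and 1.05% of all probes, and 0 of 15 passed as higher in thoracic, against 0.127% and 0.320% of all probes. When the same limits were applied to red over green dye in place of the pools, 0 of 22813 genes (0.00%) passed in either direction.

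With the saturated Igfbp7 left out, the ratios of 8 of 9 member genes were above 0, where 47.2% of all genes with an unsaturated probe were. Their median was 0.46, against -0.01 over all genes. Both arch levels lay above both thoracic levels for 10 of 15 member probes (66.7%), which was so for 26.0% of all probes. The reverse held for 1 member probe (6.67%), that of Igfbp6, and for 21.2% of all probes.

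**Figure D1:**
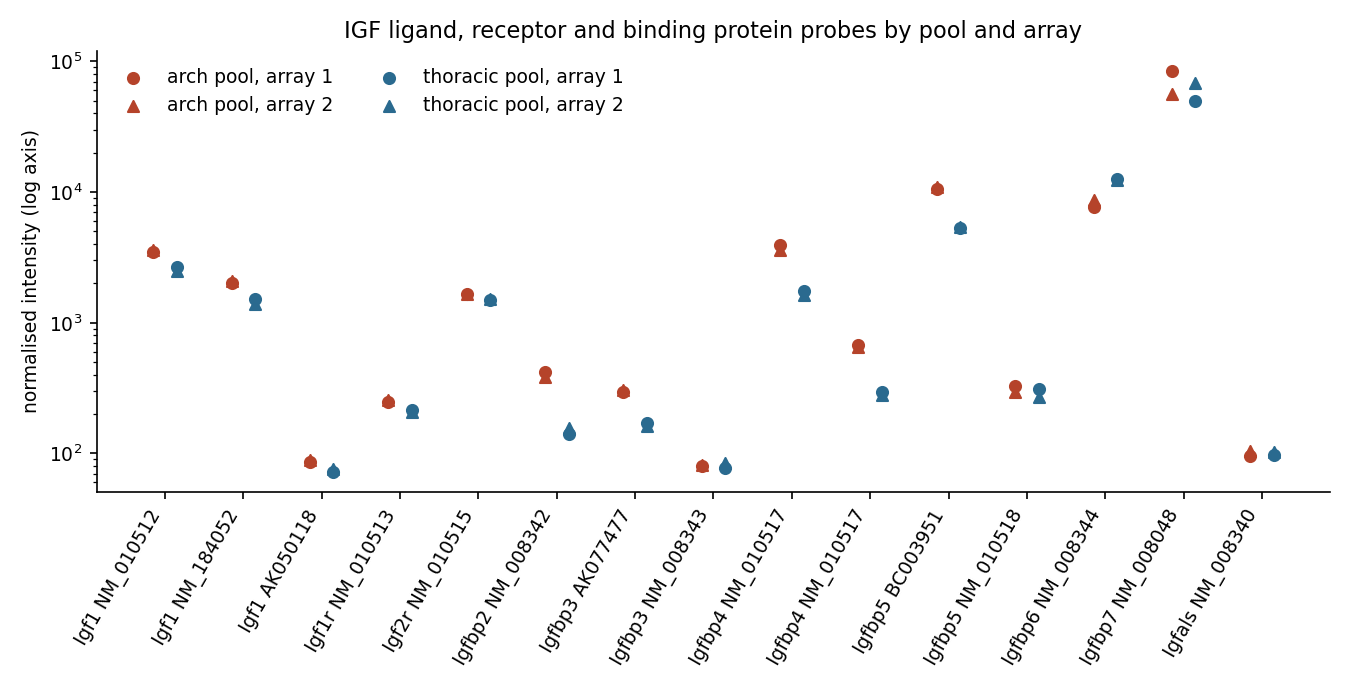
Normalised intensity (log axis) of the 15 probes of the IGF genes, with arch levels in red to the left of thoracic levels in blue, circles for array 1 and triangles for array 2. The arch points of Igfbp2, both Igfbp4 probes and the Igfbp5 probe BC003951 stand clear above the thoracic points, those of Igfbp6 stand below, and those of Igfbp7 overlap.

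**Figure D2:**
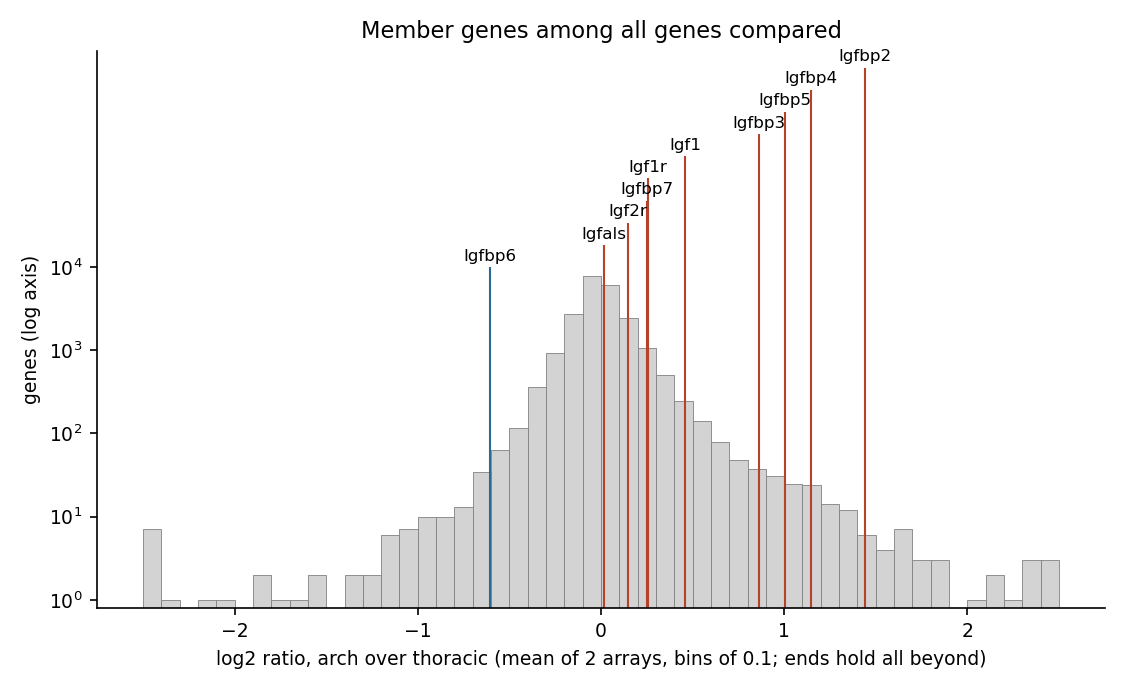
Number of genes (log axis) per bin of 0.1 in the log2 ratio of arch over thoracic, mean of 2 arrays, over the 22813 genes compared; the end bins hold all beyond. Vertical lines mark the 10 member genes by their brightest probe (that of Igfbp7 saturated), from Igfbp6 at -0.61 to Igfbp2 at 1.44.

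The promoters of the 5 binding protein genes with the largest ratios in size are shown: the 4 that were called higher in the arch pool, and Igfbp6, which was not called and had the lowest ratio. Each sequence is the 250 bases before the gene's start in RefSeq, assembly GRCm38.p6, read 5′ to 3′ on the gene's strand. Capitals mark the 2 motifs TATAAA, the TATA box core, and GGGCGG, the GC box bound by SP1-type factors, on either strand. For Igfbp2, which has 2 starts in the table, the upstream one is shown.
Igfbp2 promoter, chr1:72824230-72824479, plus strand: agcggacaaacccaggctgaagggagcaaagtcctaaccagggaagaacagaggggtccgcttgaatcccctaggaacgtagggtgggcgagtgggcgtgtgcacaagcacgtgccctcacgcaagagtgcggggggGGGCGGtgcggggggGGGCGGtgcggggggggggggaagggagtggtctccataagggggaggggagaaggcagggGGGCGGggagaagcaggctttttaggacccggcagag
Igfbp3 promoter, chr11:7213924-7214173, minus strand: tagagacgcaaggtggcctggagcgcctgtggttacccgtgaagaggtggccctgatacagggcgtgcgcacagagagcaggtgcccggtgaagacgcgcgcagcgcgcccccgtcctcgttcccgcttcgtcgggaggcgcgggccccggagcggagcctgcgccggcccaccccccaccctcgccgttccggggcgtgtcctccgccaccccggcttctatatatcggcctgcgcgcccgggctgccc
Igfbp4 promoter, chr11:99040994-99041243, plus strand: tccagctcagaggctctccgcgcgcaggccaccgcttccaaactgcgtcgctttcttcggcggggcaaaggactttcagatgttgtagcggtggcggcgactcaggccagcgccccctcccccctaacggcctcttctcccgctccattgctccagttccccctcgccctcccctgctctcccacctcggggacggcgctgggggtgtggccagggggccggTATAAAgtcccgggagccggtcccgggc
Igfbp5 promoter, chr1:72874866-72875115, minus strand: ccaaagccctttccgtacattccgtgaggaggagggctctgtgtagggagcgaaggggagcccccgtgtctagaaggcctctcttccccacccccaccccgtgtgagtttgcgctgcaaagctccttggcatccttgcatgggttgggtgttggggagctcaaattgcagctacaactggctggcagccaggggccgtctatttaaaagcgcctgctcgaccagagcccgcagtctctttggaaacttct
Igfbp6 promoter, chr15:102143936-102144185, plus strand: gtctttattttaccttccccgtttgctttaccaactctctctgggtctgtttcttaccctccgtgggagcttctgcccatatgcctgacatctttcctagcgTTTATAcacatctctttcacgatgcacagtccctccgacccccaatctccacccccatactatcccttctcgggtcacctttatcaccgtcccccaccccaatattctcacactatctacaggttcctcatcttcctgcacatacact
The Igfbp2 promoter holds 3 GC boxes, which start 113, 98 and 37 bases before the gene's start. The Igfbp4 promoter holds a TATA box 28 to 23 bases before the start, and the Igfbp6 promoter holds the same letters on the opposite strand, 148 to 143 bases before the start. The Igfbp3 and Igfbp5 windows hold neither TATAAA nor GGGCGG, and variant forms of these boxes were not searched. Over 32841 mouse promoters of this length, 12.4% hold TATAAA and 32.7% hold GGGCGG on either strand.

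A search on both strands for CANNTG, the E-box, found 1 match in each of the 5 windows, where 66.2% of all promoters hold at least 1. Neither TGANTCA, the AP-1 element (6.75% of all promoters), nor the CArG box of serum response factor (1.47%) was found in any of the 5. The GC content was 67.2% for Igfbp2, 73.2% for Igfbp3, 69.2% for Igfbp4, 58.8% for Igfbp5 and 49.6% for Igfbp6, against a median of 52.4% over all promoters. Of the searched motifs, the E-box letters alone were found in all 4 windows of the genes higher in the arch pool.

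Igf1, the ligand, had 3 probes. The brightest (NM_010512) read 3498.7 and 3583.7 in the arch pool, against 2660.3 and 2494.3 in the thoracic pool, a ratio of 0.46 ± 0.09 or 1.37-fold. A second probe (NM_184052) read 2026.6 and 2098.2 in the arch pool, against 1519.0 and 1381.3 in the thoracic pool, a ratio of 0.51 ± 0.13. On both probes each arch level lay above each thoracic level, and the size stayed under the 1.5-fold rule. The third probe (AK050118, a cDNA clone) was dim, at 85.8 and 89.5 in the arch pool, against 72.4 and 76.4 in the thoracic pool, a ratio of 0.24 ± 0.01. This probe depended on the background step: without the offset of 50 that damps dim probes its ratio was 0.63. By rank, Igf1 stood at place 547 of 22813 genes from the arch end.

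Igf1r, the receptor tyrosine kinase, read 248.9 and 255.1 in the arch pool, against 213.6 and 208.7 in the thoracic pool. The ratio was 0.26 ± 0.05, or 1.19-fold, at place 1546 from the arch end, and the levels of the pools did not overlap. Another 2 probes carry clone names that RefSeq lists as synonyms of Igf1r and were not counted as members. A330103N21Rik read 459.8 and 470.0 in the arch pool, against 392.1 and 387.3 in the thoracic pool (0.25 ± 0.04). D930020L01 read 119.9 and 115.5 in the arch pool, against 106.5 and 106.9 in the thoracic pool (0.14 ± 0.04). All 3 probes thus gave ratios of 0.14 to 0.26, under both rules.

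Igf2r, which takes IGF-2 and lysosomal enzymes to lysosomes, read 1665.1 and 1664.9 in the arch pool, against 1500.3 and 1509.6 in the thoracic pool. The ratio of 0.15 ± 0.01 was the most repeatable of the members, and at 1.11-fold it was under both rules. The levels did not overlap, but the size stood at place 3333 from the arch end.

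Igfbp2, a binding protein that also carries an integrin-binding motif, had the largest ratio of the members. Its single probe read 418.7 and 387.0 in the arch pool, against 140.7 and 156.8 in the thoracic pool. The ratio was 1.57 on array 1 and 1.30 on array 2, a mean of 1.44 ± 0.19 or 2.71-fold. It stood at place 30 of 22813 genes from the arch end. The thoracic levels are close to the range of dim probes, and the ratio was larger where no offset was added (1.84, 3.57-fold) and in the scanner's deposited log ratio (1.91, 3.75-fold).

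Igfbp4, which binds IGFs and inhibits their action until it is cut by PAPP-A, was measured by 2 probes of the same transcript (NM_010517). Probe A_52_P257502 read 3910.1 and 3583.5 in the arch pool, against 1753.2 and 1635.0 in the thoracic pool, a ratio of 1.14 ± 0.02 or 2.21-fold. Probe A_51_P398971 read 674.3 and 654.9 in the arch pool, against 292.8 and 279.3 in the thoracic pool, a ratio of 1.22 ± 0.02 or 2.32-fold. Both probes passed the 2-fold rule, with a spread between arrays far smaller than the difference between pools. Igfbp4 was the only member whose further probe passed the rule too, and it stood at place 74 from the arch end.

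Igfbp5, which binds IGFs and sticks to extracellular matrix, gave 2 different answers. The probe BC003951 read 10634 and 10887 in the arch pool, against 5341.6 and 5380.4 in the thoracic pool, a ratio of 1.01 ± 0.02 or 2.01-fold at place 107. The probe NM_010518 read 329.6 and 293.3 in the arch pool, against 308.9 and 271.1 in the thoracic pool, a ratio of 0.10 ± 0.01. Its levels overlapped across the arrays, while within each array the arch level was slightly higher (ratios of 0.09 and 0.11). The call of Igfbp5 therefore rests on 1 of 2 probes. It also sits at the edge of the 2-fold rule, with 0.99 on array 1 and 1.02 on array 2. Without loess it was 0.87 and passed neither rule, and with the median over its probes it was 0.55 and passed neither.

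Igfbp3, the main IGF carrier in blood, also had 2 probes with different ratios, 1 of them dim. The probe AK077477 read 296.9 and 308.2 in the arch pool, against 170.6 and 162.5 in the thoracic pool, a ratio of 0.86 ± 0.09 or 1.82-fold at place 152, past the 1.5-fold rule. The probe NM_008343 was dim, at 79.5 and 81.0 in the arch pool, against 77.4 and 84.8 in the thoracic pool, a ratio of -0.01 ± 0.08 with overlapping levels. Its raw signals were 112.6 and 104.9 in the arch pool, against 97.1 and 121.2 in the thoracic pool. With negative control spots averaging 77.0 to 97.1, this probe could show little difference either way. The first probe passed the 2-fold rule where no offset was added (1.11) and in the deposited log ratio (1.15), and the median over both probes (0.42) passed neither rule.

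Igfbp6, which prefers IGF-2 over IGF-1, was the 1 member with a mean below 0. It read 7746.1 and 8728.9 in the arch pool, against 12600.0 and 12441 in the thoracic pool. Both arch levels lay under both thoracic levels. The ratio was -0.70 on array 1 and -0.51 on array 2, a mean of -0.61 ± 0.13, so only array 1 was past 1.5-fold and the gene passed neither rule. It stood at place 96 of 22813 from the thoracic end.

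Igfbp7, a relative that binds IGFs only weakly and is abundant in vessel walls, was saturated in the red channel on both arrays. Its raw signals were 64373 and 65293 in the arch pool, against 65293 and 64091 in the thoracic pool, at or close to the highest signal on the arrays (65293 in red). The normalised ratios of 0.77 on array 1 and -0.27 on array 2 were opposite in sign, and the difference between the pools was not measured.

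Igfals, the subunit that locks IGF and IGFBP-3 into the large serum complex and is made mainly by the liver, was dim in both pools. It read 96.0 and 104.8 in the arch pool, against 96.9 and 101.7 in the thoracic pool. The ratio was 0.01 ± 0.04 and the levels overlapped. Its raw signals were 129.9 and 132.4 in the arch pool, against 120.2 and 137.7 in the thoracic pool, where the negative control spots averaged 77.0 to 97.1. So close to background, the probe could show little difference either way.

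**Figure D3:**
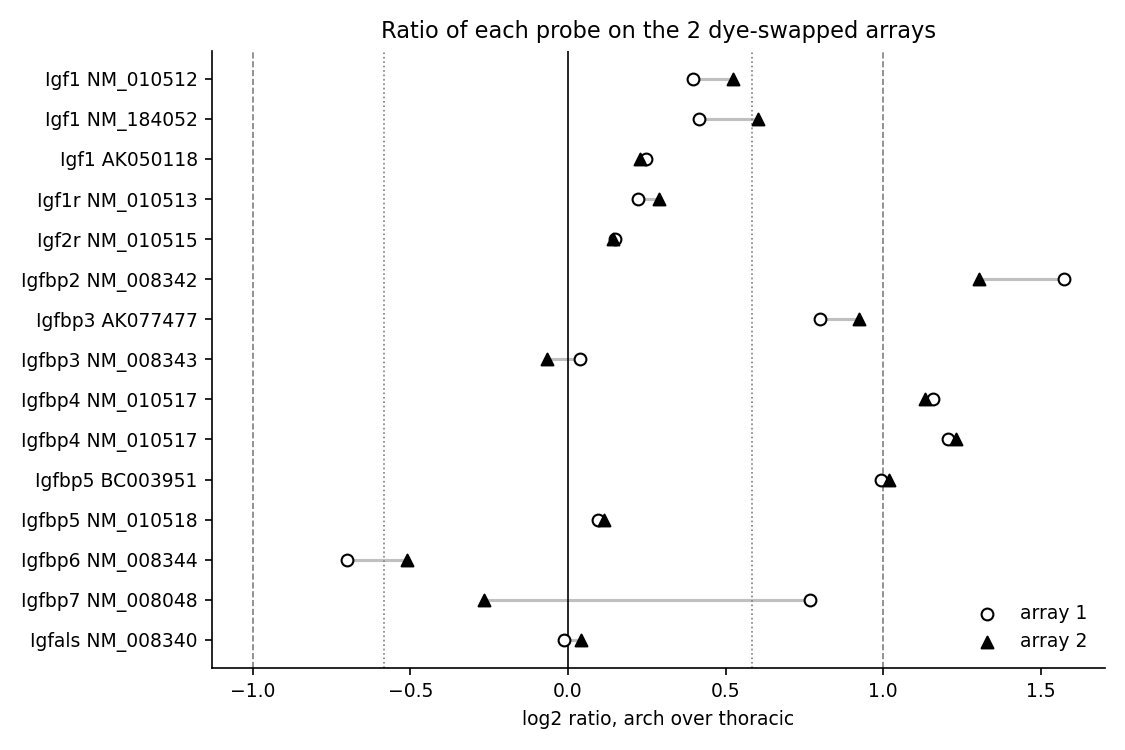
Log2 ratio of arch over thoracic of each of the 15 probes on array 1 (open circles) and array 2 (filled triangles), with dashed lines at 2-fold and dotted lines at 1.5-fold. The arrays nearly coincide for both Igfbp4 probes and for Igfbp5, and lie far apart only for the saturated Igfbp7 probe (0.77 and -0.27).

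**Figure D4:**
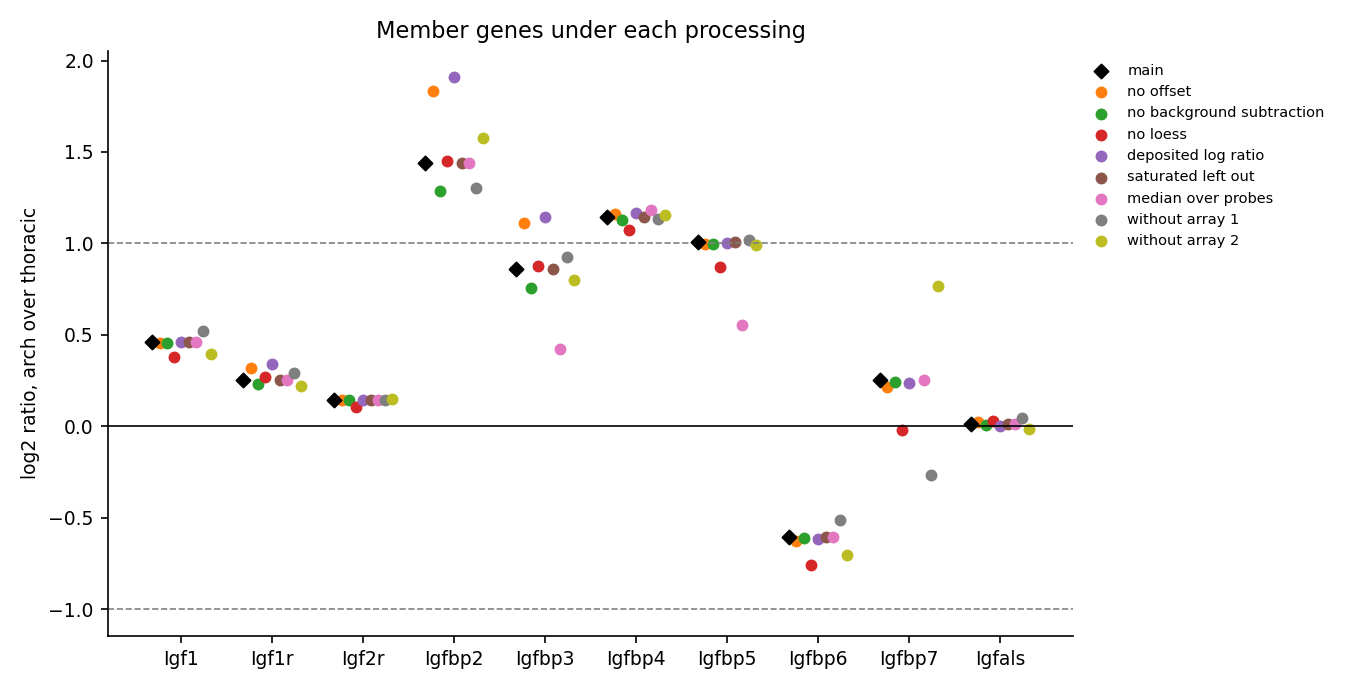
Log2 ratio of arch over thoracic of each member gene under the processing used here (black diamonds) and 8 alternatives (coloured circles), with dashed lines at 2-fold. Igfbp2 spans 1.29 to 1.91 and Igfbp4 1.08 to 1.18, Igfbp3 and Igfbp5 drop where the median over probes is taken, and Igfbp7 crosses 0.

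The genes around the members were read from 9 lists of 98 genes, of which 93 could be compared. Of these, 6 were higher in the arch pool by the 1.5-fold rule, 1 of them by the 2-fold rule, and 1 was lower by both. Over all genes the 1.5-fold rule called 1.20% higher in arch and 0.386% lower. The median ratio of the 93 was 0.05, against -0.01 over all genes. Igfbp1, Adam12 and Irs3 were not well above background, and no probe name matched Irs2 or Gsk3a.

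Among the 6 other ligands, receptors and binding proteins compared, none passed either rule. Igf2, the other IGF ligand, read 181.5 and 179.2 in the arch pool, against 165.0 and 151.7 in the thoracic pool (0.19 ± 0.07). Its further probe had 0.22. The insulin receptor gene Insr had a ratio of -0.18 on its brightest probe and 0.04 on the other, so its sign depends on the probe.

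Among 12 genes for proteases that cut binding proteins and their inhibitors, only Stc2 and Ctsd passed the 1.5-fold rule, both as higher in the arch pool. Stc2 encodes stanniocalcin-2, an inhibitor of the PAPP-A protease that cuts IGFBP-4. It read 483.9 and 413.3 in the arch pool, against 138.8 and 137.8 in the thoracic pool, a ratio of 1.69 ± 0.15 or 3.23-fold. The protease gene Pappa itself was dim on its brightest probe. It read 133.2 and 140.4 in the arch pool, against 92.7 and 90.7 in the thoracic pool. The ratio was 0.58 ± 0.08 on that probe and 0.14 on the other, under both rules, and the offset pulls such dim ratios towards 0. Ctsd, the lysosomal protease cathepsin D, had 0.99 ± 0.05, and 0.81 on its other probe. The probes of Igfbp4 and Stc2 were thus both past the 2-fold rule, and the dim one of Pappa was not.

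Of 10 relatives that carry an IGFBP-type domain, 2 were higher in the arch pool by the 1.5-fold rule and 1 was lower. Esm1, an endothelial proteoglycan gene, read 179.9 and 168.4 in the arch pool, against 642.0 and 635.0 in the thoracic pool, a ratio of -1.88 ± 0.06 or 3.67-fold lower in arch. Its direction was opposite to that of the endothelium markers that passed, all of which were higher in the arch pool. The matricellular genes Ccn3 (Nov on the array) and Ccn4 (Wisp1) had ratios of 0.85 ± 0.06 and 0.62 ± 0.03.

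In the growth hormone axis, which drives Igf1 in the liver and other tissues, 1 of 8 genes passed. Cish, a cytokine-induced feedback inhibitor, read 310.6 and 308.6 in the arch pool, against 185.4 and 179.2 in the thoracic pool (0.76 ± 0.03). The receptor gene Ghr read 1401.2 and 1344.3 in the arch pool, against 1990.4 and 1951.1 in the thoracic pool, a ratio of -0.52 ± 0.02 that passed neither rule, with -0.33 and -0.24 on its other probes. Of 10 surface partners of binding proteins, Lrp1, an endocytic receptor known to bind IGFBP-3, passed the 1.5-fold rule (0.83 ± 0.03).

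Downstream of the receptor no listed gene passed either rule. The 12 adaptor genes had ratios of -0.09 to 0.32, the 24 PI3K, AKT and mTOR genes -0.32 to 0.37 and the 10 RAS and MAP kinase genes -0.08 to 0.26. The 3 genes for IGF-2 mRNA binding proteins had a median of 0.03. These are transcript levels and say nothing of the phosphorylation through which the route signals.

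**Figure D5:**
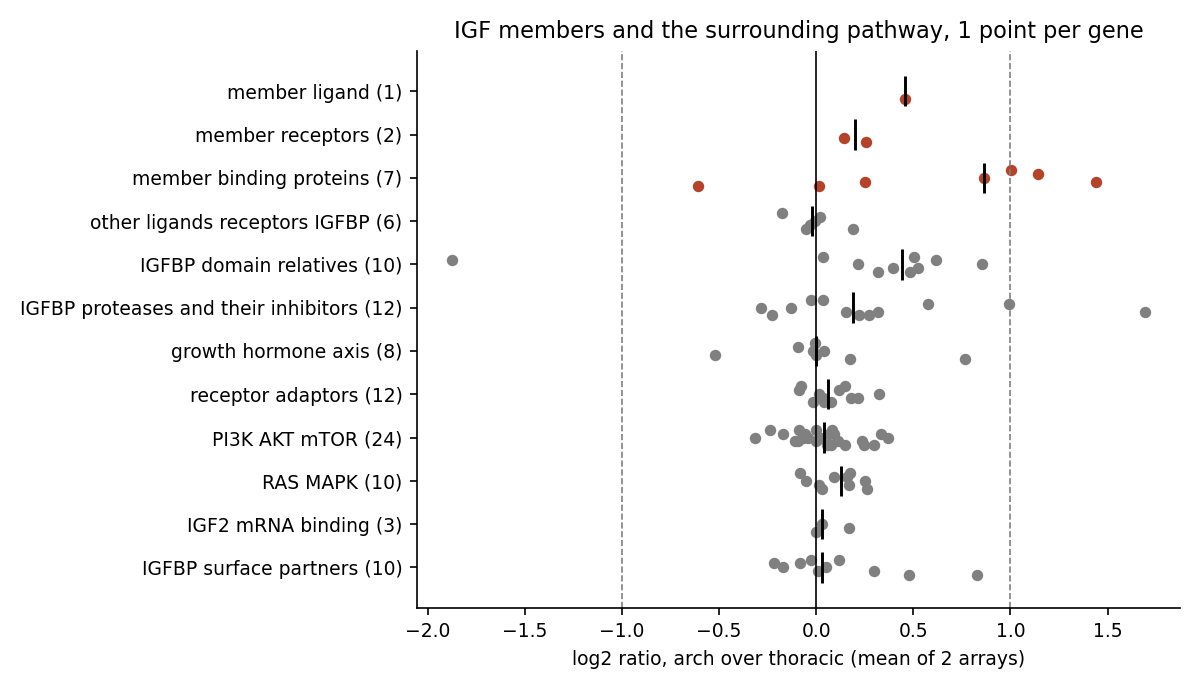
Log2 ratio of arch over thoracic, mean of 2 arrays, of each gene in the member lists (red) and in 9 lists of surrounding genes (grey), with the number of genes compared in brackets, black bars at each median and dashed lines at 2-fold. Igfbp2 and Stc2 lie farthest to the arch side, Esm1 farthest to the thoracic side, and the adaptor, PI3K and RAS lists lie between -0.32 and 0.37.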

How the data were processed

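RNA from 1 arch and 1 thoracic pool of 6 apoE-/- mice was compared on 2 two-colour arrays with exchanged dyes, per the labels. The deposited scanner tables hold intensity values per spot, written by Agilent Feature Extraction. Its version is 8.1.1.1 per the file headers and 9.1.1.1 per the submitters' processing notes. The deposited log ratios, also in a table of the whole series, are log10 values of processed red over green signal. That table held arch over thoracic on both arrays (correlations of 1.00 with the scanner's turned ratio, medians of 0.00). It held 0 columns of other series.

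With limma 3.58.1 in R 4.3.3, mean signals were background-corrected (normexp, offset 50) and normalised by loess within each array, control spots at weight 0. Outlier spots (8 on array 1, 5 on array 2) were left out, spots of a probe averaged, array 1 turned to arch over thoracic and the arrays averaged. Levels were scaled by Aquantile. Probes well above background in at least 1 pool on both arrays were compared, and the brightest stood for its gene. The offset and unspecific signal pull the ratios of dim probes towards 0, and the number of arrays limits the precision.

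Names were updated with RefSeq, assembly GRCm38.p6 (21445 probes by accession, 5431 by symbol, 4636 by synonym, 9662 kept). All members were named, and from each list up to 4 genes, those past the 2-fold rule first and then by size. A statement that no other gene of a list passed rests on all of its genes. The members and lists were chosen with earlier results of these data known. The steps were tested on simulated data. The genome build behind the probes was not given in the sources used here. Protein and probe sequences were not used here.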

Additional observations from a re-analysis of the deposited data

How the results depend on the processing

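Each value was recomputed under 10 alternatives, not all of which could change the member values. The deposited log ratio and the deposited table of the series gave the same value for every member. Every member probe passed the filter on dim probes, so dropping that filter changed none of them. Leaving out saturated spots only removed Igfbp7. Of the member genes, 8 of 10 kept their direction in all alternatives. The exceptions were Igfbp7, with values from -0.27 to 0.77, and Igfals, from -0.01 to 0.04, neither of which had been called. Igfbp2 and Igfbp4 passed the 2-fold rule throughout, though the median over a gene's probes could not change Igfbp2, which has a single probe. Igfbp5 missed the 2-fold rule with no offset (1.00), no background subtraction (1.00), no loess (0.87), the median over its probes (0.55) and without array 2 (0.99). Among all genes, the 2-fold rule called 108 higher in arch and 33 higher in thoracic, and the 1.5-fold rule 274 and 88. With no offset the counts were 196 and 66 by the 2-fold rule, and 469 and 157 by the 1.5-fold rule. In the deposited log ratio and the deposited table of the series they were 232 and 77, and 526 and 181. Without loess the 1.5-fold rule called 179 and 58. With the median over a gene's probes, 2 member genes passed the 1.5-fold rule as higher in arch, as Igfbp3 (0.42) and Igfbp5 (0.55) no longer did. Leaving out 1 array, 0 to 1 member genes and 0 to 1 member probes passed the 1.5-fold rule as higher in thoracic, the 1 being Igfbp6 (-0.70) without array 2. No paired analysis was possible because both arrays hold the same 2 pools and form a single group. Signals near background limit the dim probes of Igf1, Igfbp3 and Igfals, and saturation limits Igfbp7. The cause of the differences between settings was not tested.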

Other observations

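In the RefSeq table, Igfbp2 and Igfbp5 are next to each other on chromosome 1, with no other protein-coding gene between them, and both passed the 2-fold rule as higher in the arch pool, Igfbp5 on 1 of 2 probes. Igfbp3 lies next to Igfbp1 on chromosome 11. Igfbp3 passed the 1.5-fold rule on 1 of 2 probes, while the Igfbp1 probe was not well above background. Igfbp4 and Igfbp6, with ratios of 1.14 and -0.61, have no IGF gene as a neighbour.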
